A study of Mus musculus with 12 samples.

Results

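The genes described here are the type I interferon-stimulated antiviral genes, a list of 44 mouse symbols. They were found by matching each symbol to the gene rows of the deposited table of read counts. The table has 16353 genes, and 41 of the 44 symbols matched a row, while Mx2, Phf11b and Helz2 did not and are not analysed here. All 41 matched genes passed the filter on low counts, so every one was tested.

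The cells were CD8 T cells of KB5 mice on the CBA/J background, which carry a transgenic T cell receptor specific for an allogeneic antigen of the C57BL/6 strain. All 12 RNA-seq libraries came from cells sorted from spleen for CD8 and the KB5 receptor to a stated purity of 95%, with 3 libraries in each of 4 groups. Inflamed cells came from mice given 10000000 C57BL/6 splenocytes intravenously (a donor-specific transfusion), 0.5 mg of antibody to CD154 and 100 µg of lipopolysaccharide (LPS). Tolerized cells had the transfusion and the antibody, and activated cells had the transfusion alone, all at the same doses, and the cells of these 3 groups were taken 12 h after treatment. Naive cells came from untreated mice. The antibody blocks CD154 (CD40 ligand), the costimulatory ligand through which T cells engage CD40 on antigen-presenting cells, and LPS, a component of bacterial outer membranes, activates Toll-like receptor 4. Separate mice are not stated for the libraries, which are labelled as independent, so p-values measure the spread between these libraries, which may be technical. LPS was given only together with antigen and antibody, so its effect alone cannot be told apart from its effect in that combination.

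Type I interferons signal through the receptor chains Ifnar1 and Ifnar2 and the kinases Jak1 and Tyk2 to transcription factors, among them Stat2 and its partner Irf9, which bind interferon-stimulated response elements (ISREs) in the promoters of their target genes. The products of those genes restrict viral entry, replication and egress, sense viral nucleic acid, or damp the response again. Many are also present at a low, tonic level in resting T cells, and many can be induced by interferon gamma as well.

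Library totals ran between 29335723 and 84533097 reads, and the lowest raw count of any member in any library was 10 reads. Levels are given as CPM, read counts relative to the library total after scaling by the trimmed mean of M-values (TMM). Differences are on the log2(CPM + 1) scale with their standard errors. A gene is called, or said to have risen or fallen, where limma's adjusted p was under 0.05 over 12499 tested genes. The 8 T cell markers (Cd3d, Cd3e, Cd3g, Cd8a, Cd8b1, Cd2, Cd5 and Lck) summed to between 2186 and 5473 CPM in every library, as the label CD8 T cell requires, while the 5 natural killer cell markers stayed at or under 2.71 CPM. Transcripts of other splenic cells were present in amounts that differed between libraries, and those are given beside the results they move with. Tolerized library 3 stood apart from the other 2 of its group, with the highest level in that group for 39 of 41 members, and results that rest on it are also given without it. The sample text for RNA extraction names cultured fibroblasts, which the T cell markers and the rest of the labels go against.

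Promoter sequence was available from RefSeq (GRCm38.p6) for 31 of the 41 members, as windows of 250 bases before and 50 bases after each annotated start. The ISRE core was searched as GAAA, any 2 bases and GAAA again or, on the other strand, as TTTC, any 2 bases and TTTC, with overlapping matches kept. At least 1 match lay in the windows of 14 of the 31 members (45.2%), against 394 of 10049 tested genes with a promoter (3.92%). The gamma-activated site TTCNNNGAA, which reads the same on both strands, was in the windows of 8 members (25.8%) against 8.53% of tested genes. Upstream of the start there were 17 ISRE matches in 10 members, from -156 to -14 relative to the start, and 16 of the 17 began within 150 bases of it. The windows of Ifit1 and Isg15 are shown as those of members with large differences after LPS, Rsad2 as a gene with 1 match, Bst2 as a gene whose level in activated cells was not below naive, and Ifi203 as a gene that holds the motif but was lower in inflamed than in naive cells. Each is the 250 bases before the start in GRCm38, read 5′ to 3′ along the strand of the gene, with the ISRE core matches in capitals. They are Ifit1 at chr19:34640639-34640888 (plus strand), Isg15 at chr4:156200819-156201068 (minus), Rsad2 at chr12:26456453-26456702 (minus), Bst2 at chr8:71537473-71537722 (minus) and Ifi203 at chr1:173942493-173942742 (minus, before 1 of its annotated starts).
Ifit1: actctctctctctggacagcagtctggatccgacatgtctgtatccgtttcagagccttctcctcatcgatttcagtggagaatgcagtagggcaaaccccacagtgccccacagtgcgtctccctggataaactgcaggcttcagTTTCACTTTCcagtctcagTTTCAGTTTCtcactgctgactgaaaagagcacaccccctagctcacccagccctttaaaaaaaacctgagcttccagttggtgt
Isg15: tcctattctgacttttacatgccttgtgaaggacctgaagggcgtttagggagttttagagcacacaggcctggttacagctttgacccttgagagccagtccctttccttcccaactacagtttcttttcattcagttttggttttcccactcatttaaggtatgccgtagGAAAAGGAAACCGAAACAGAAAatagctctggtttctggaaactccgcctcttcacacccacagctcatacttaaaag
Rsad2: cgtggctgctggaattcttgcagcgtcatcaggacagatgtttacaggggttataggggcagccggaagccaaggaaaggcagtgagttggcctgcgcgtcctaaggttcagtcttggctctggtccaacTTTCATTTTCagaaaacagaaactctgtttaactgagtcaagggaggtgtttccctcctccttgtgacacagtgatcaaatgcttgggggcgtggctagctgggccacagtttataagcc
Bst2: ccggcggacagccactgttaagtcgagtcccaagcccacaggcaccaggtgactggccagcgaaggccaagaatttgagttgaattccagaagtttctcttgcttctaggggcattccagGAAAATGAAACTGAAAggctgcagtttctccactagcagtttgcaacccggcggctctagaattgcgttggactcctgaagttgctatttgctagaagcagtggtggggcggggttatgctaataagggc
Ifi203: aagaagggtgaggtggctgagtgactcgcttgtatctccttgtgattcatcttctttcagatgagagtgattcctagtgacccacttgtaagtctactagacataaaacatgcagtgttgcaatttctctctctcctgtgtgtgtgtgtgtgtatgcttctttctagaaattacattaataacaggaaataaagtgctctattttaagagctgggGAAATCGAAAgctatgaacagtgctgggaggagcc

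The match in Ifit1 starts at -104 and again at -85, and those in Bst2 at -130 and -124. In Isg15 the matches at -78, -72 and -66 overlap in an unbroken run, while Rsad2 has its match at -120 and Ifi203 at -35. The letters are those of the reference genome and not of CBA/J cells, and a match is a description of sequence, not of factor binding. Among members with a promoter window, matches were in 8 of 17 genes called higher in inflamed than in tolerized cells (47.1%) and in 6 of 14 that were not called (42.9%).

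**Figure D1:**
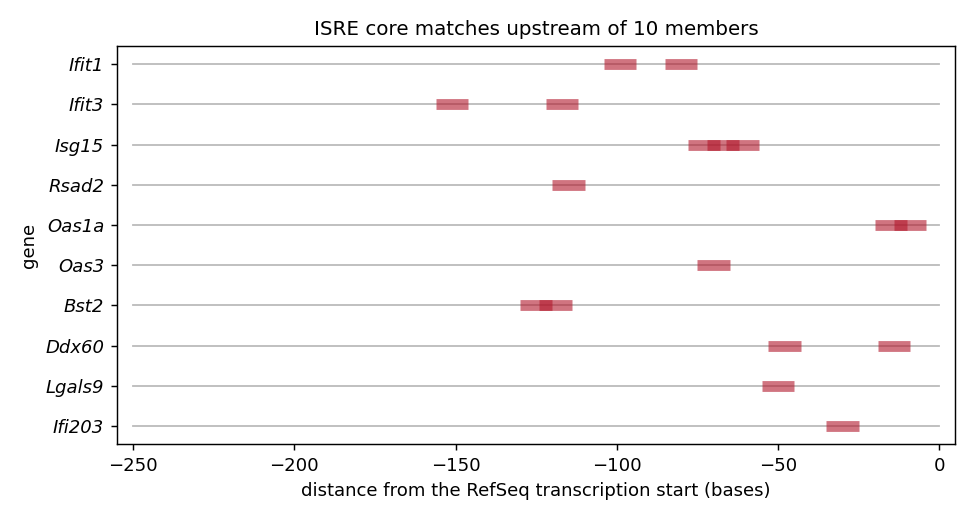
ISRE core matches (red blocks of 10 bases, darker where they overlap) in the 250 bases upstream of 10 interferon-stimulated members, with the distance from the RefSeq transcription start in bases on the horizontal axis. The 17 matches begin between -156 and -14, and the 3 in Isg15 overlap.

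Of the 41 interferon-stimulated genes, 23 rose in inflamed cells, with LPS on top of antigen and CD154 blockade, against tolerized cells, 18 were not called and none fell, against 1.66% of all tested genes that rose and 1.12% that fell. All 41 differences were positive, between 0.40 and 4.49 with a median of 2.06 on the log2 scale, where the median over all tested genes was -0.01. For 30 members every inflamed library was above every tolerized library, which held for 9.10% of all tested genes. Leaving out each library in turn kept 15 of the 23 calls in all 12 fits, and without tolerized library 2 the count was 15 in all. With only the 6 inflamed and tolerized libraries in the fit, 11 members passed.

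The ISG15 pathway held the member with the smallest p-value. Isg15 encodes the ubiquitin-like protein that is attached to viral and cellular proteins and is also secreted. Inflamed libraries had 248, 161 and 145 CPM of Isg15, against 12.5, 12.2 and 18.8 CPM in tolerized, 15.5, 15 and 13.3 CPM in activated and 9.83, 11.5 and 9.76 CPM in naive libraries. Every inflamed library was above every other library, by 3.57 ± 0.21 against tolerized cells (SE, adjusted p = 2.11e-05), and the call held in every fit that left out 1 library, where the largest adjusted p was 0.000410. Usp18 counted 107, 82.6 and 54.8 CPM in inflamed, 1.44, 1.81 and 12.6 CPM in tolerized, 2.30, 4.18 and 6.92 CPM in activated and 15.9, 19.0 and 12.0 CPM in naive libraries. Usp18, the protease that removes ISG15 and also blocks signalling at Ifnar2, was 4.13 ± 0.58 (adjusted p = 0.00327) higher in inflamed than in tolerized cells, with no overlap between those groups. The conjugating enzymes did otherwise. For Uba7 the inflamed libraries gave 34.8, 45.4 and 24.2 CPM, the tolerized 5.20, 14.9 and 36.4 CPM, the activated 6.66, 33.9 and 59.0 CPM and the naive 202, 201 and 183 CPM. Uba7, the E1 enzyme that activates ISG15, was highest in naive cells, and its inflamed libraries overlapped the tolerized ones (1.17 ± 0.73, adjusted p = 0.553). Herc6, the mouse ligase for ISG15, was at 48.0, 35.4 and 28.5 CPM in inflamed libraries and at 6.91, 12.3 and 32.0 CPM in tolerized libraries, which overlapped (1.31 ± 0.50, adjusted p = 0.236).

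Among the IFIT genes, whose products bind viral RNA and block its translation and which lie together on chromosome 19 between 34550550 and 34650009, 2 of 3 rose in inflamed over tolerized cells. Ifit1 was at 83.9, 66.0 and 68.2 CPM in inflamed libraries, at 0.836, 1.27 and 7.39 CPM in tolerized, 1.55, 3.04 and 5.87 CPM in activated and 18.6, 17.8 and 10.9 CPM in naive libraries. Inflamed libraries had 97.1, 60.4 and 46.7 CPM of Ifit3, against 1.22, 0.870 and 9.32 CPM in tolerized, 2.59, 2.53 and 4.20 CPM in activated and 22.9, 26.7 and 15.3 CPM in naive libraries. Inflamed libraries of both genes lay above all others, by 4.49 ± 0.52 (adjusted p = 0.00117) for Ifit1 and 4.24 ± 0.55 (adjusted p = 0.00224) for Ifit3 over tolerized cells. Ifit2 counted 50.9, 43.8 and 24.8 CPM in inflamed, 8.47, 13.5 and 18.6 CPM in tolerized, 8.39, 13.4 and 23.4 CPM in activated and 54.0, 53.5 and 45.3 CPM in naive libraries. For Ifit2 the inflamed libraries were above all tolerized and activated ones but did not pass against tolerized cells (1.49 ± 0.37, adjusted p = 0.0644) and overlapped the naive range. Reads of Ifit3 may be shared with its near copy Ifit3b, and the counting of such reads is not given in the sources used here.

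Of the 5 oligoadenylate synthetase genes, 4 rose in inflamed over tolerized cells. Enzymes of this family make the second messenger that switches on RNase L, and some of its proteins act on nucleic acid sensing. For Oasl1 the inflamed libraries gave 33.7, 17.6 and 13.8 CPM, the tolerized 0.608, 0.647 and 1.19 CPM, the activated 0.612, 1.2 and 1.09 CPM and the naive 3.87, 3.35 and 2.57 CPM. Oasl2 was at 47.1, 22.6 and 14.4 CPM in inflamed libraries, at 0.722, 0.692 and 1.98 CPM in tolerized, 1.55, 1.55 and 2.68 CPM in activated and 12.0, 11.6 and 7.27 CPM in naive libraries. Both had every inflamed library above all other libraries, and the differences from tolerized cells were 3.56 ± 0.29 (adjusted p = 0.000169) for Oasl1 and 3.66 ± 0.39 (adjusted p = 0.000714) for Oasl2. Inflamed libraries had 159, 108 and 65.4 CPM of Oas3, against 1.79, 4.91 and 30.4 CPM in tolerized, 3.10, 8.90 and 17.5 CPM in activated and 30.1, 25.6 and 17.6 CPM in naive libraries. Oas3 reached the highest CPM of the 5 and passed with 3.71 ± 0.79 (adjusted p = 0.0324), though only 4 of the 12 fits without 1 library kept that call (largest adjusted p = 0.140, without tolerized library 2). Oas2 counted 31.3, 13.6 and 13.1 CPM in inflamed, 0.380, 0.692 and 5.09 CPM in tolerized, 0.504, 0.826 and 1.97 CPM in activated and 6.29, 8.34 and 7.06 CPM in naive libraries. For Oas1a the inflamed libraries gave 14.1, 9.35 and 5.07 CPM, the tolerized 0.570, 0.915 and 5.68 CPM, the activated 1.04, 0.799 and 0.806 CPM and the naive 3.09, 3.70 and 3.07 CPM. Oas2 passed (2.95 ± 0.52, adjusted p = 0.0130), and without inflamed library 1 (adjusted p = 0.0579) or tolerized library 2 (adjusted p = 0.0728) it did not. For Oas1a tolerized library 3 lay inside the inflamed range, and the difference was 1.85 ± 0.48 (adjusted p = 0.0723). All 5 genes lie on chromosome 5, and Oas1a belongs to a cluster of near-identical copies among which reads may be split.

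The cytosolic sensors and RNA-directed enzymes divided. Ifih1 was at 53.1, 40.1 and 29.5 CPM in inflamed libraries, at 3.80, 5.0 and 10.9 CPM in tolerized, 6.84, 4.74 and 7.14 CPM in activated and 16.9, 21.3 and 18.2 CPM in naive libraries. Ifih1, which encodes the viral RNA sensor MDA5, was higher in every inflamed library than in any other, by 2.54 ± 0.32 (adjusted p = 0.00179) over tolerized cells. Inflamed libraries had 51.4, 31.8 and 21.1 CPM of Dhx58, against 2.32, 4.08 and 12.4 CPM in tolerized, 4.18, 4.18 and 5.89 CPM in activated and 15.8, 15.9 and 14.0 CPM in naive libraries. Dhx58, the regulatory helicase LGP2, passed as well (2.46 ± 0.45, adjusted p = 0.0147), but not without inflamed library 1 (adjusted p = 0.0703), inflamed library 2 (0.0575) or tolerized library 2 (0.0774). Ddx58 counted 57.8, 58.0 and 37.3 CPM in inflamed, 5.85, 15.5 and 44.9 CPM in tolerized, 7.81, 27.8 and 61.5 CPM in activated and 158, 159.9 and 139.7 CPM in naive libraries. Ddx58, the sensor RIG-I, had its highest values in naive cells, overlapped between inflamed and tolerized cells, and did not pass (1.56 ± 0.71, adjusted p = 0.346). For Eif2ak2 the inflamed libraries gave 85.6, 69.0 and 56.9 CPM, the tolerized 8.28, 12.8 and 25.9 CPM, the activated 7.24, 11.4 and 15.6 CPM and the naive 26.4, 25.8 and 23.2 CPM. Adar was at 301, 271 and 259 CPM in inflamed libraries, at 118, 123 and 151 CPM in tolerized, 109.9, 134 and 149.9 CPM in activated and 200.2, 198 and 190.3 CPM in naive libraries. Eif2ak2 encodes the kinase PKR, which halts translation on viral RNA, and Adar the RNA editing enzyme, and both were above all other libraries in inflamed cells. Their differences from tolerized cells were 2.22 ± 0.35 (adjusted p = 0.00674) and 1.08 ± 0.12 (adjusted p = 0.000979), so that Adar was the member with the smallest called difference. Inflamed libraries had 107, 66.7 and 44.7 CPM of Zbp1, against 3.61, 5.62 and 34.9 CPM in tolerized, 5.76, 12.7 and 27.1 CPM in activated and 88.8, 88.0 and 72.5 CPM in naive libraries. Zbp1, a sensor of Z-form nucleic acid, had inflamed libraries above all tolerized ones but did not pass (2.75 ± 0.71, adjusted p = 0.0723). Ifi203 counted 20.4, 25.7 and 19.3 CPM in inflamed, 6.50, 14.7 and 41.7 CPM in tolerized, 6.48, 20.1 and 35.4 CPM in activated and 83.6, 82.4 and 72.4 CPM in naive libraries. Ifi203 and Ifi204 belong to the mouse AIM2-like family, and neither passed, with 0.40 ± 0.62 (adjusted p = 0.880) for Ifi203 and 1.24 ± 0.54 (adjusted p = 0.323) for Ifi204. Ddx60, a helicase linked to RIG-I signalling, was at 19.0, 19.6 and 12.0 CPM in inflamed and 0.988, 3.10 and 9.34 CPM in tolerized libraries, without overlap, and did not pass (2.0 ± 0.69, adjusted p = 0.184).

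The membrane, nucleotide and trafficking effectors had 4 of 7 genes called. For Bst2 the inflamed libraries gave 254, 177 and 147 CPM, the tolerized 46.6, 46.1 and 46.3 CPM, the activated 58.4, 53.1 and 40.3 CPM and the naive 39.9, 45.6 and 33.2 CPM. Bst2 encodes tetherin, which holds budding virions at the cell surface. Its inflamed libraries stood above all others by 2.0 ± 0.20 (adjusted p = 0.000466) over tolerized cells, and the tolerized, activated and naive libraries lay close together. Rsad2 was at 47.6, 17.4 and 10.6 CPM in inflamed libraries, at 0.570, 0.826 and 1.22 CPM in tolerized, 3.13, 0.506 and 1.24 CPM in activated and 6.70, 7.63 and 11 CPM in naive libraries. Rsad2 encodes viperin, which makes a chain-terminating nucleotide, and it passed (3.56 ± 0.49, adjusted p = 0.00288); its inflamed library 3 lay below naive library 3, and with the precision weights of limma-voom its adjusted p was 0.0561. Inflamed libraries had 55.3, 42.9 and 35.9 CPM of Rtp4, against 0.798, 2.03 and 9.87 CPM in tolerized, 2.45, 4.96 and 9.15 CPM in activated and 23.1, 26.1 and 18.9 CPM in naive libraries. Isg20 counted 22.3, 15.9 and 9.34 CPM in inflamed, 1.82, 2.63 and 7.31 CPM in tolerized, 2.63, 2.45 and 3.69 CPM in activated and 12.6, 11.5 and 13.2 CPM in naive libraries. Rtp4, a chaperone of membrane receptors that restricts flaviviruses in some mammals, differed by 3.53 ± 0.57 (adjusted p = 0.00728), and Isg20, an exonuclease, by 1.86 ± 0.38 (adjusted p = 0.0276), with no overlap of inflamed and tolerized libraries in either gene. Without tolerized library 2 the adjusted p of Isg20 was 0.130. Cmpk2, the mitochondrial nucleotide kinase beside Rsad2 on chromosome 12, was at 18.1, 10.2 and 8.91 CPM in inflamed and 0.760, 0.826 and 6.58 CPM in tolerized libraries. These did not overlap, and the difference did not pass (2.15 ± 0.52, adjusted p = 0.0582). For Ifitm3 the inflamed libraries gave 34.0, 11.7 and 2.51 CPM, the tolerized 1.14, 1.34 and 1.05 CPM, the activated 3.89, 0.773 and 0.469 CPM and the naive 2.89, 5.13 and 5.82 CPM. Ifitm3, which blocks the fusion of viral and endosomal membranes, was spread widely over the inflamed libraries and did not pass (2.42 ± 0.70, adjusted p = 0.108); it passed without inflamed library 3 (adjusted p = 0.00957).

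Ifi27l2a was at 45, 49.8 and 29.4 CPM in inflamed libraries, at 1.52, 7.08 and 76.3 CPM in tolerized, 3.46, 6.29 and 11.1 CPM in activated and 37.8, 38.4 and 31.7 CPM in naive libraries. Tolerized library 3 held the highest value of Ifi27l2a in the study, above all inflamed libraries, and the difference was 1.83 ± 0.94 (adjusted p = 0.417). Inflamed libraries had 46.6, 30.3 and 23.5 CPM of Epsti1, against 6.19, 12.7 and 133 CPM in tolerized, 8.89, 10.1 and 17.2 CPM in activated and 45.7, 52.5 and 44.7 CPM in naive libraries. Epsti1, named for epithelial stromal interaction, had the same layout with 133 CPM in that library (0.49 ± 0.82, adjusted p = 0.898). Without it, both genes passed in inflamed over tolerized cells (adjusted p = 0.00753 for Ifi27l2a and 0.0317 for Epsti1), as did Mx1, Oas1a, Zbp1, Cmpk2 and Dtx3l, and the count of called members was 30. Tolerized library 3 was singled out after seeing the members' own levels. Leaving it out therefore favours larger differences, and these calls are not independent support. For 11 members, tolerized library 3 alone made the overlap with inflamed cells, since every inflamed library was above tolerized libraries 1 and 2. Of these 11, Oas1a (2.5, adjusted p = 0.00198), Ifi27l2a and Epsti1 passed without it. The other 8 did not: the difference was then 1.87 (adjusted p = 0.0517) for Herc6, 1.81 (0.316) for Uba7, 2.26 (0.141) for Ddx58, 1.52 (0.260) for Sp100, 1.84 (0.228) for Samd9l, 1.09 (0.271) for Lgals9, 1.06 (0.500) for Ifi203 and 1.56 (0.281) for Ifi204. Itgax, listed here as a dendritic cell marker but not specific to dendritic or myeloid cells, was at 35.9 CPM in tolerized library 3, against 2.89 and 3.19 CPM in the other tolerized libraries and 0.397 to 5.01 CPM in inflamed libraries. The other 7 dendritic cell markers summed to 0.961 CPM there, below tolerized libraries 1 and 2 with 1.48 and 2.03 CPM.

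Mx1 counted 28.8, 18.3 and 12.8 CPM in inflamed, 0.456, 0.670 and 10.6 CPM in tolerized, 0.720, 0.586 and 0.937 CPM in activated and 4.74, 6.39 and 5.93 CPM in naive libraries. Mx1, of the dynamin-like GTPase family, did not pass against tolerized cells (2.71 ± 0.64, adjusted p = 0.0510), although every inflamed library was above every tolerized one. In the ADP-ribosylation group, 3 of 4 genes rose. For Parp9 the inflamed libraries gave 106, 96.4 and 70.7 CPM, the tolerized 11.3, 20.1 and 38.9 CPM, the activated 14.9, 24.4 and 36.9 CPM and the naive 78.8, 79.4 and 66.0 CPM. Parp14 was at 184, 149 and 109 CPM in inflamed libraries, at 23.7, 34.6 and 84.8 CPM in tolerized, 33.6, 43.6 and 74.9 CPM in activated and 148, 149.9 and 133 CPM in naive libraries. Parp9 and its partner Dtx3l, a ubiquitin ligase, and Parp14 lie in a stretch of chromosome 16. Every inflamed library of all 4 genes of the group was above every tolerized library, by 2.06 ± 0.40 (adjusted p = 0.0197) for Parp9, 1.78 ± 0.41 (adjusted p = 0.0475) for Parp14, 1.88 ± 0.37 (adjusted p = 0.0213) for Parp12 and, not passing, 1.36 ± 0.36 (adjusted p = 0.0829) for Dtx3l. Inflamed libraries had 24.9, 12.0 and 6.41 CPM of Parp12, against 2.24, 2.23 and 3.76 CPM in tolerized, 5.69, 3.92 and 4.05 CPM in activated and 11, 12.5 and 10.3 CPM in naive libraries. None of the 3 calls held in every fit without 1 library: without tolerized library 2 the adjusted p was 0.0893 for Parp9, 0.181 for Parp14 and 0.105 for Parp12.

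Among the nuclear, apoptosis-linked and other cytosolic genes, 3 of 6 were called. Ifi44 counted 71.1, 38.2 and 19.0 CPM in inflamed, 1.41, 1.81 and 3.11 CPM in tolerized, 6.91, 2.80 and 1.05 CPM in activated and 6.09, 10.8 and 8.47 CPM in naive libraries. For Ifi35 the inflamed libraries gave 96.2, 76.6 and 68.7 CPM, the tolerized 23.8, 28.8 and 33.3 CPM, the activated 28.7, 33.6 and 32.4 CPM and the naive 43.4, 50.2 and 39.9 CPM. Xaf1 was at 31.5, 27.3 and 19.8 CPM in inflamed libraries, at 1.37, 2.32 and 10.2 CPM in tolerized, 1.12, 4.08 and 6.90 CPM in activated and 18.2, 19.7 and 16.0 CPM in naive libraries. Ifi44, a cytosolic protein linked to antiviral and feedback roles, rose by 3.66 ± 0.52 (adjusted p = 0.00362), Ifi35, an adaptor of innate signalling, by 1.46 ± 0.15 (adjusted p = 0.000637), and Xaf1, which opposes the apoptosis inhibitor XIAP, by 2.59 ± 0.56 (adjusted p = 0.0358). The Xaf1 call held in 4 of the 12 fits without 1 library. Inflamed libraries had 140.4, 147 and 88.1 CPM of Sp100, against 28.7, 60.8 and 213 CPM in tolerized, 28.6, 75.0 and 145 CPM in activated and 352, 335 and 285 CPM in naive libraries. Sp100, a component of nuclear bodies, was highest in naive cells and overlapped between inflamed and tolerized libraries (0.75 ± 0.67, adjusted p = 0.738). Samd9l, a restriction factor of poxviruses, was at 112, 146 and 99.7 CPM in inflamed and 21.0, 48.5 and 117 CPM in tolerized libraries, which overlapped (1.23 ± 0.66, adjusted p = 0.452). Lgals3bp counted 214, 154 and 97.9 CPM in inflamed, 15, 25.7 and 41.7 CPM in tolerized, 27.7, 29.7 and 40.9 CPM in activated and 104, 114 and 97.4 CPM in naive libraries. Lgals3bp, a secreted glycoprotein that binds galectins, rose by 2.5 ± 0.34 (adjusted p = 0.00288), and every inflamed library was above every tolerized one. For Lgals9 the inflamed libraries gave 66.1, 67.4 and 37.8 CPM, the tolerized 18.2, 35.2 and 77.0 CPM, the activated 18.2, 35.8 and 49.9 CPM and the naive 118, 121 and 103 CPM. Lgals9, which encodes galectin-9, overlapped (0.57 ± 0.47, adjusted p = 0.706).

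**Figure D2:**
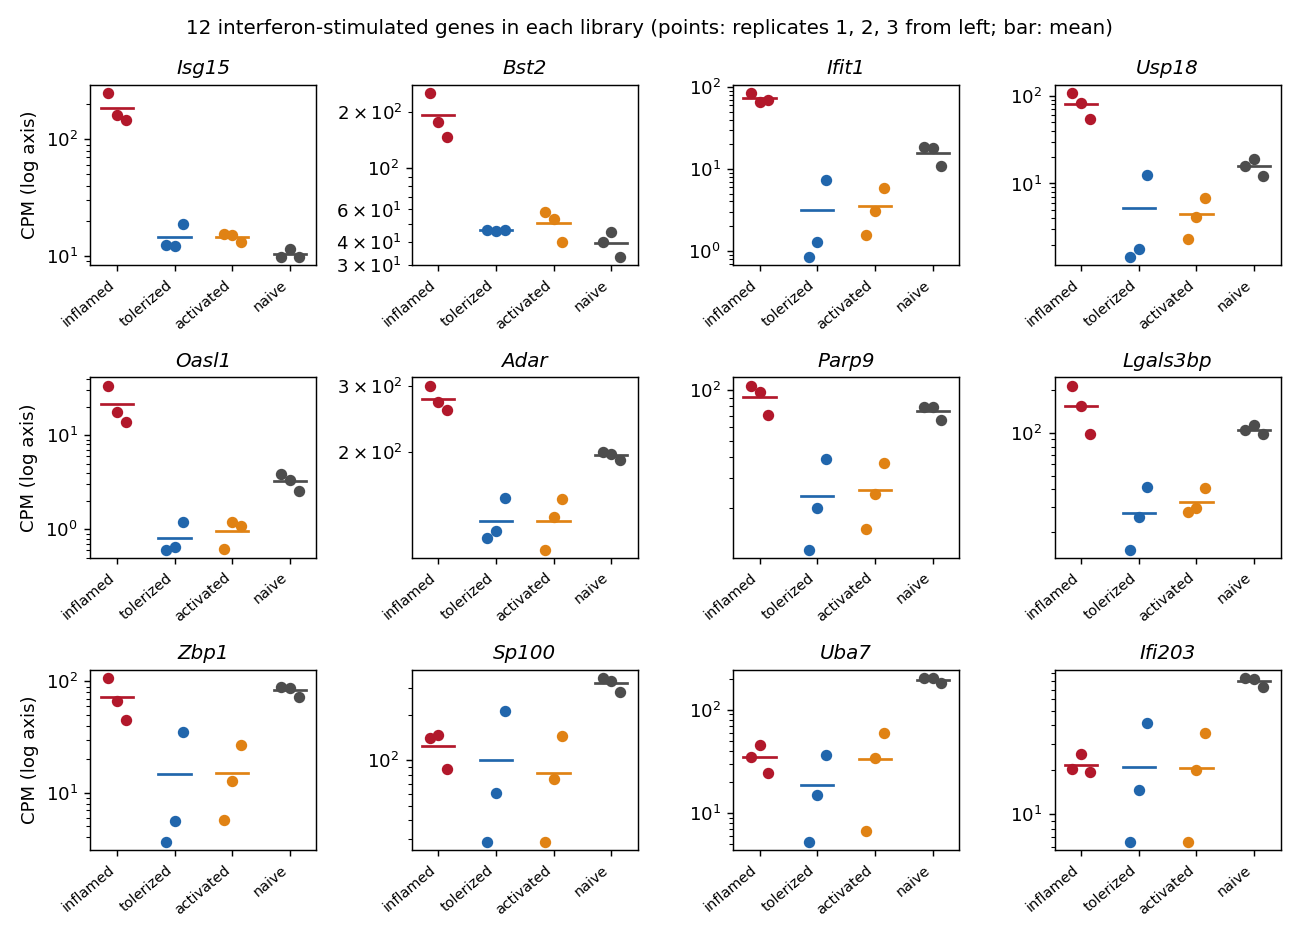
CPM (log axis) of 12 interferon-stimulated members in the 12 libraries, with points for replicates 1, 2 and 3 from left to right in each group and a bar for the group mean. Isg15 and Bst2 stand above all other groups in inflamed cells and are flat over the rest, Ifit1 and Usp18 are lowest in tolerized and activated cells, and Uba7 and Ifi203 are highest in naive cells.

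Per kilobase of exon, which allows levels of different genes to be compared, Bst2 and Isg15 were the most abundant members in inflamed cells, with means of 252 and 244 CPM per kilobase, and Ifi27l2a followed with 89.4. In tolerized cells the highest were Ifi27l2a with 61.1, of which most came from library 3, and Bst2 with 60.5, and Isg15 had 19.2. In activated cells Bst2 had 66.0 and Sp100 38.4 CPM per kilobase. In naive cells the order was another, with Sp100 at 150.1, Ifi27l2a at 77.7, Lgals9 at 71.9, Samd9l at 64.4 and Uba7 at 61.7, while Isg15 had 13.7. Lengths are the exon lengths per gene that the deposited table gives.

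Set against activated cells, which had antigen without the antibody, the inflamed cells showed a like picture. Here 22 of 41 members rose and none fell, against 1.54% of all tested genes that rose and 0.384% that fell. The median difference was 2.16, with all 41 positive and between 0.34 and 4.15, and 31 members had every inflamed library above every activated one. That separation held for 965 of the 12499 tested genes. The comparisons with tolerized and with activated cells share the inflamed libraries, so their likeness is not independent. Isg15 differed by 3.53 ± 0.21 (adjusted p = 2.01e-05), Ifit1 by 4.15 ± 0.52 (adjusted p = 0.00227), Oasl1 by 3.45 ± 0.29 (adjusted p = 0.000178) and Bst2 by 1.89 ± 0.20 (adjusted p = 0.000762). Mx1 (3.52 ± 0.64, adjusted p = 0.0175) and Oas1a (2.39 ± 0.48, adjusted p = 0.0282) passed against activated cells and not against tolerized cells, while Oas3, Parp12 and Parp14 passed against tolerized cells alone of these 2 comparisons, with 3.53 ± 0.79 (adjusted p = 0.0519), 1.30 ± 0.37 (adjusted p = 0.143) and 1.57 ± 0.41 (adjusted p = 0.109) against activated cells. Whether those genes differ between tolerized and activated cells is given by the direct comparison, in which none passed. Deviations of same-numbered inflamed and activated libraries from their group means correlated positively, most strongly for library 1 of each group. With a replicate block in a fit of these 2 groups 11 members passed, among them Isg15, Ifi44, Bst2, Ifit3, Mx1 and Ifit1. Without activated library 2 the count was 13, and 13 of the 22 calls held in every fit without 1 library.

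No member was called between cells exposed to antigen with and without the CD154 block. In tolerized against activated cells 0 of 41 members passed, where the share of all tested genes was 0%, and at an unadjusted p under 0.05 there were 0 members and 531 genes in all. The median member difference was -0.13, with 11 positive and 30 negative between -0.88 and 0.91. It was -0.65 without tolerized library 3 and 0.17 without tolerized library 1. Limma-voom called 0 members too. The intervals were wide for most genes: Ifit1 differed by -0.34 ± 0.52 (adjusted p = 1) with a 95% interval of -1.50 to 0.82, and Epsti1 by 0.91 ± 0.82 (adjusted p = 1) with -0.91 to 2.73. They were narrower for Adar (-0.27 to 0.27), Ifi35 (-0.48 to 0.20), Bst2 (-0.54 to 0.33) and Isg15 (-0.49 to 0.43). Parp12 was the only member for which every tolerized library lay below every activated one, at 2.24, 2.23 and 3.76 CPM in tolerized libraries against 5.69, 3.92 and 4.05 CPM in activated libraries (-0.58 ± 0.37, adjusted p = 1). That ordering held for 306 of the 12499 tested genes.

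Most of these genes were lower in activated and tolerized cells than in naive cells. In activated against naive cells 35 of 41 members fell and none rose, where 35.3% of all tested genes fell and 35.3% rose. In tolerized against naive cells 32 fell and none rose, where 35.9% of all tested genes fell and 37.4% rose. The median member differences were -1.79 in activated and -1.76 in tolerized cells, against -0.04 and -0.01 over all tested genes, and both comparisons share the naive libraries. The lowest values were those of Uba7, with -2.96 ± 0.73 (adjusted p = 0.00420) in activated and -3.67 ± 0.73 (adjusted p = 0.00105) in tolerized cells, followed by Ddx60 (-2.77 ± 0.69, adjusted p = 0.00441, and -3.41 ± 0.69, adjusted p = 0.00115). Ddx58 had -2.61 ± 0.71 (adjusted p = 0.00737) in activated and -3.14 ± 0.71 (adjusted p = 0.00234) in tolerized cells, and Zbp1 -2.61 ± 0.71 (adjusted p = 0.00699) and -3.02 ± 0.71 (adjusted p = 0.00280). In naive cells these genes varied little, with 202, 201 and 183 CPM of Uba7, and every activated and tolerized library was lower. All 9 sensors and RNA-directed enzymes, all 3 IFIT genes and all 4 genes of the ADP-ribosylation group fell in activated cells.

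Isg15 and Bst2 did not share this. Isg15 differed by 0.46 ± 0.21 (adjusted p = 0.0696) in activated and 0.43 ± 0.21 (adjusted p = 0.0866) in tolerized cells, and every activated and every tolerized library was above every naive library, though neither passed. Bst2 differed by 0.34 ± 0.20 (adjusted p = 0.140) and 0.23 ± 0.20 (adjusted p = 0.299). The other members that did not pass in activated cells were Epsti1, Ifi44, Ifitm3 and Oas3, all with negative differences. With scaling by library size alone Isg15 had 0.21 in activated and 0.14 in tolerized cells, and Bst2 0.07 and -0.07, so the sign for Bst2 in tolerized cells depends on the scaling. Without activated library 1 the median over members in activated cells was -1.54, and without tolerized library 1 that in tolerized cells was -1.39. The naive libraries also held more transcripts of other splenic cells. The 8 B cell markers summed to between 332 and 429 CPM, against 77.7 to 164 CPM in the 9 antigen-exposed libraries. The 12 macrophage markers summed to 709, 1769 and 1839 CPM, against 13.6 to 706 CPM, so activated library 1 came close to naive library 1. Erythroid markers, 8 in number, summed to 1134, 997 and 2398 CPM, against 19.8 to 302 CPM. Of the 8 T cell markers, 7 fell in activated and 6 in tolerized against naive cells. The part of the other splenic cells in the naive levels was not tested. In sorted bulk samples a lower level can be fewer cells of a kind or less RNA in each cell, and these cannot be told apart.

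**Figure D3:**
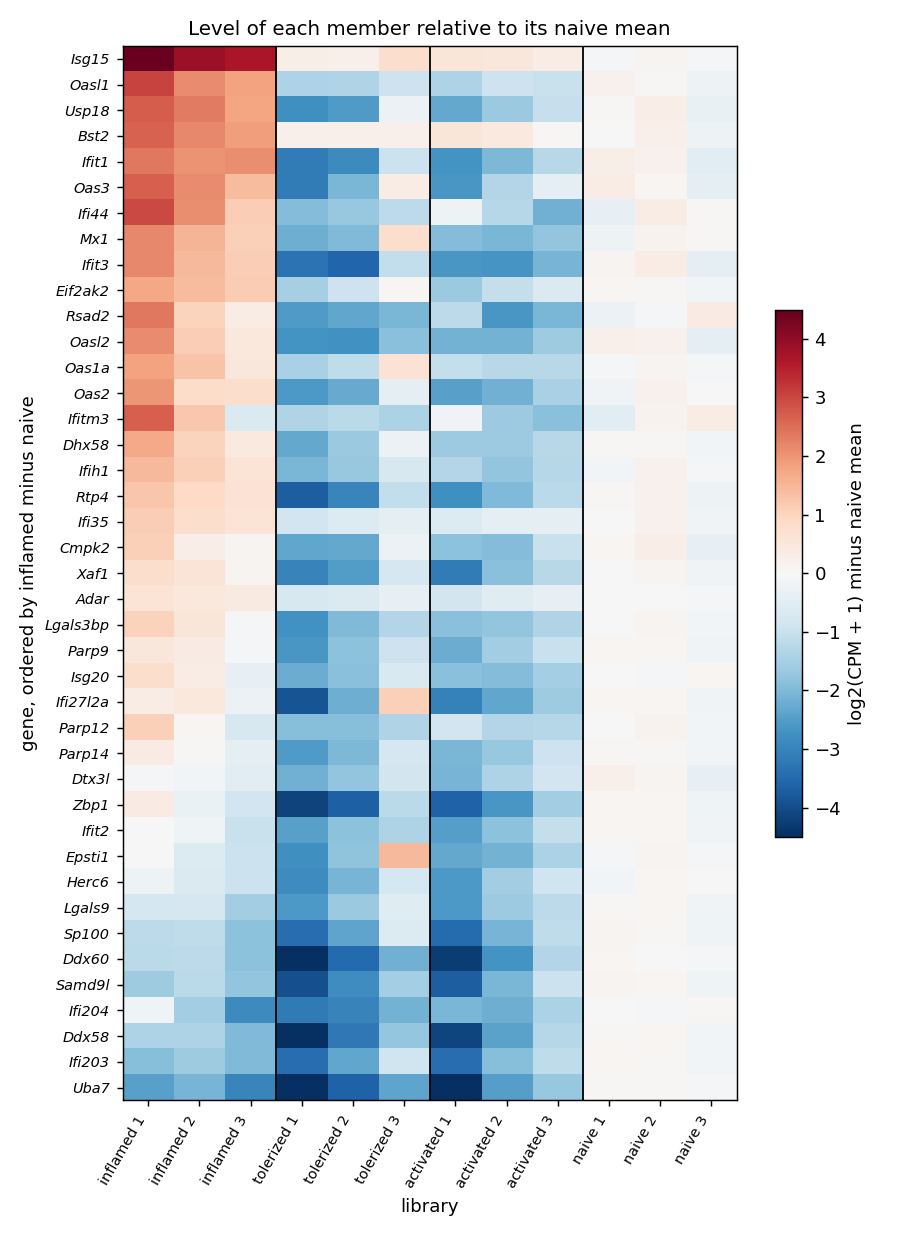
Log2(CPM + 1) of the 41 members in the 12 libraries minus the mean of the naive libraries, as a colour scale that ends at 4.5 in each direction, with genes ordered by inflamed minus naive. Most genes are below naive in tolerized and activated libraries, and the upper rows are above naive in the inflamed ones, with Isg15 at the top and Uba7 at the bottom.

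Against naive cells, inflamed cells had some members well above the untreated level, some near it and some below it. Here 16 of 41 rose and 3 fell, against 36.9% of all tested genes that rose and 35.5% that fell, and the median difference was 0.50, with 28 positive and 13 negative. Members thus rose about as often as all tested genes and fell less often. The 13 genes called higher in inflamed cells than in each of the other 3 groups were Isg15, Usp18, Ifit1, Ifit3, Oasl1, Oasl2, Ifih1, Eif2ak2, Adar, Bst2, Rsad2, Ifi35 and Ifi44. How many of all tested genes were called in all 3 of these comparisons was not counted. Isg15 had the largest difference from naive cells, 3.99 ± 0.21 (adjusted p = 1.19e-07), followed by Oasl1 (2.33 ± 0.29, adjusted p = 3.6e-05), Usp18 (2.28 ± 0.58, adjusted p = 0.00459) and Bst2 (2.23 ± 0.20, adjusted p = 2.87e-06). Oas3, Mx1 and Oas1a were the other 3 genes called above naive. A further 7 genes passed against both tolerized and activated cells but not against naive cells: Dhx58, Isg20, Lgals3bp, Oas2, Parp9, Rtp4 and Xaf1. With only the inflamed and naive libraries in the fit, 4 of these 7 were called above naive, with adjusted p = 0.0136 for Dhx58, 0.0127 for Oas2, 0.00286 for Rtp4 and 0.0385 for Xaf1, and limma-voom called Dhx58 (0.0128), Oas2 (0.0189) and Rtp4 (0.0198). Parp14 and Parp12 passed against tolerized cells alone, and Parp14 was at 184, 149 and 109 CPM in inflamed libraries and 148, 149.9 and 133 CPM in naive libraries (0.01 ± 0.41, adjusted p = 0.991). For 13 members none of the 3 comparisons of inflamed cells passed.

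Below naive in inflamed cells were 3 genes. Uba7 (-2.5 ± 0.73, adjusted p = 0.00999), Ifi203 (-1.83 ± 0.62, adjusted p = 0.0199) and Ifi204 (-1.54 ± 0.54, adjusted p = 0.0254) fell, and without inflamed library 3 neither Ifi203 (-1.75, adjusted p = 0.0534) nor Ifi204 (-0.87, adjusted p = 0.0940) passed. Samd9l, Ddx58, Ddx60 and Sp100 had differences between -1.59 and -1.39 and did not pass, with adjusted p between 0.0570 and 0.0865. With only these 2 groups in the fit all 4 passed, with adjusted p of 0.000569 for Sp100 and lower for the others, and limma-voom called Samd9l (0.0449), Ddx58 (0.0220) and Ddx60 (0.0110). Over all members the fit of these 2 groups called 19 higher and 8 lower, limma-voom 19 and 7, and the replicate block 14 and 5. In the main fit 36.9% of all tested genes rose and 35.5% fell in this comparison. Their shares in these other fits are not given here, so the member counts are not set against a background. For 9 members every inflamed library was below every naive one, and for 19 members every inflamed library was above every naive one. Over the 12499 tested genes these counts were 4829 and 4936. The split depends on scaling too, because library size alone shifts the median of all genes by -0.27 in this comparison and upper-quartile scaling by -0.17: with library size alone 8 members rose and 8 fell, and with upper-quartile scaling 13 rose and 8 fell. Of all genes called, 38.6% were higher with library size alone and 42.5% with upper-quartile scaling. The 8 that rose under all 4 scalings were Isg15, Usp18, Ifit1, Oasl1, Eif2ak2, Bst2, Ifi35 and Ifi44. Without inflamed library 1 the count of called members was 12.

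**Figure D4:**
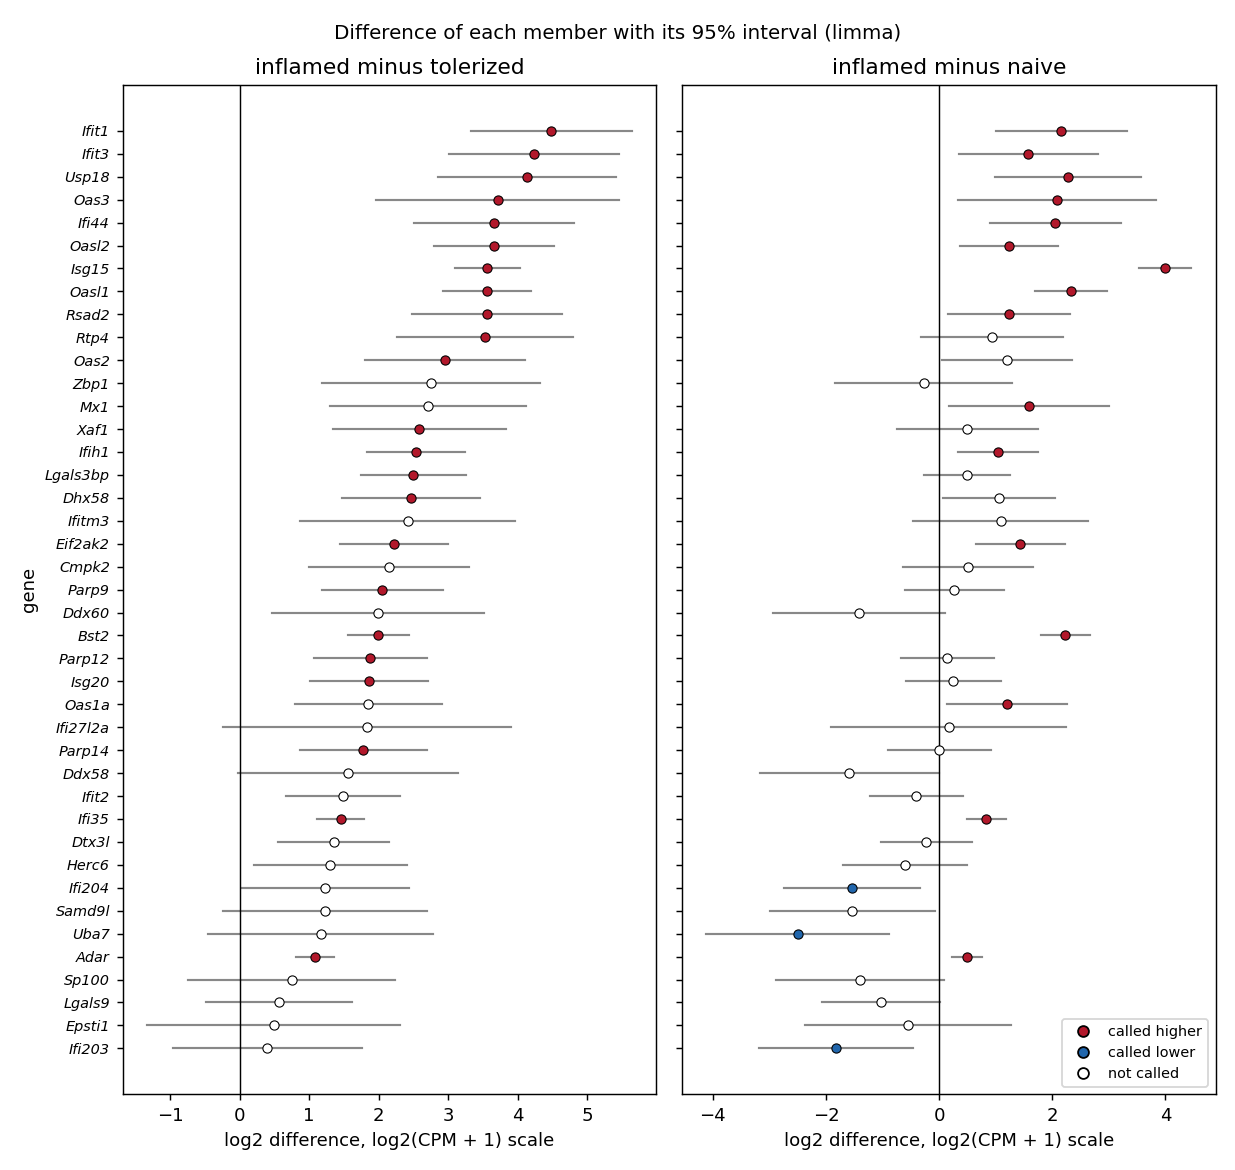
Difference of each of the 41 members on the log2(CPM + 1) scale with its 95% interval from limma, in inflamed minus tolerized cells (left) and inflamed minus naive cells (right), with genes in the same order in both panels. All 41 points lie above 0 on the left, and 28 lie above 0 on the right, where Uba7, Ifi203 and Ifi204 are called lower.

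The wider pathway was read from 34 listed genes, of which 29 matched a row of the table and 28 were tested. In inflamed against tolerized cells 4 rose and none fell, and 3 rose against activated cells, where 1.66% and 1.54% of all tested genes rose. Irf7, the transcription factor that amplifies type I interferon production, was at 199, 132 and 89.2 CPM in inflamed, 3.61, 5.78 and 30.7 CPM in tolerized, 9.72, 10.9 and 21.7 CPM in activated and 74.2, 84.7 and 67.5 CPM in naive libraries. All inflamed libraries were above all others, and the difference from tolerized cells was 3.74 ± 0.60 (adjusted p = 0.00717). Irf9, the DNA-binding part of the ISRE factor, differed by 1.57 ± 0.29 (adjusted p = 0.0169), while Stat2 did not pass (1.06 ± 0.29, adjusted p = 0.0928). The inhibitor Socs1 had 52.9, 56.7 and 51.9 CPM in inflamed and 14.1, 9.26 and 9.90 CPM in tolerized libraries (2.20 ± 0.15, adjusted p = 6.09e-05), and was above naive cells as well (1.05 ± 0.15, adjusted p = 0.000106). Socs3 differed from tolerized cells by 2.61 ± 0.60 (adjusted p = 0.0469) and was below naive cells (-1.99 ± 0.60, adjusted p = 0.0121).

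The receptor chains were not called between inflamed and tolerized cells. Ifnar1 differed by -0.28 ± 0.36 (adjusted p = 0.843) and Ifnar2 by -0.09 ± 0.22 (adjusted p = 0.938) and both fell against naive cells in all 3 antigen-exposed groups, with -1.75 ± 0.36 (adjusted p = 0.00123) and -0.98 ± 0.22 (adjusted p = 0.00192) in inflamed cells. Of the ligands, Ifna4 had no reads in 11 of the 12 libraries, and Ifnb1 was not analysed here. Ifng, the ligand of the type II receptor, was at 84.2, 66.5 and 65.3 CPM in inflamed, 105, 82.1 and 95.5 CPM in tolerized, 128, 64.8 and 71.0 CPM in activated and 0.196, 0.177 and 1.36 CPM in naive libraries, so it was high in all antigen-exposed groups and the groups given antigen overlapped. Over the whole pathway list 4 genes rose and 20 fell in activated against naive cells, 4 rose and 21 fell in tolerized, and 5 rose and 14 fell in inflamed cells. Of all tested genes, 35.3% rose and 35.3% fell in activated, 37.4% and 35.9% in tolerized and 36.9% and 35.5% in inflamed cells against naive cells.

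Within groups the members moved together from library to library. The median member level was 53.1, 43.8 and 29.4 CPM in inflamed libraries, 2.32, 5.0 and 18.6 CPM in tolerized, 5.76, 6.29 and 13.3 CPM in activated and 26.4, 26.1 and 23.2 CPM in naive libraries. Inflamed library 1 was the highest of its group for 33 of 41 members and inflamed library 3 the lowest for 40, while tolerized library 1 was the lowest of its group for 35 and activated library 3 the highest for 32. Myeloid transcripts also differed between the inflamed libraries: the 12 macrophage markers summed to 475, 166 and 13.6 CPM, and the 8 neutrophil markers, among them S100a8 and S100a9, to 234, 107 and 13.2 CPM. In tolerized libraries the macrophage sums were 135, 108 and 46.1 CPM and the neutrophil sums 2.81, 3.66 and 11.8 CPM, and in activated libraries 706, 164 and 55.6 CPM and 15.7, 2.34 and 3.62 CPM. None of the macrophage markers was called between inflamed and tolerized or activated cells. Of the 8 neutrophil markers, all 8 had positive differences in inflamed against tolerized and against activated cells, with 0 called against tolerized (smallest adjusted p = 0.0723) and 1 against activated cells (adjusted p = 0.0349). Against naive cells 4 neutrophil markers were called higher in inflamed cells and 1 lower, and 9 of the 12 macrophage markers were called lower. The part of those cells in the members' levels was not tested.

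Of the 41 members, 32 ranked the 3 inflamed libraries in the same order as both myeloid sums, Isg15 and Bst2 among them. The members moved together, so these are not separate observations, and the share of all tested genes with that order was not counted. In tolerized and in activated libraries the member medians ran in the opposite order to the macrophage sums. The neutrophil sums followed the member medians in tolerized but not in activated libraries. The ranges differed, with 248, 161 and 145 CPM of Isg15 in inflamed libraries, 34.0, 11.7 and 2.51 CPM of Ifitm3 and 20.1, 7.05 and 2.28 CPM of Ifi204. With the library richest in macrophage markers left out of each group, a choice made after seeing the data that leaves 2 libraries a group, 12 members passed in inflamed against tolerized cells with a median of 1.53, and 11 against activated cells with a median of 1.78. How many of all tested genes passed against tolerized cells in that fit is not given here, so the member count has no background beside it. Isg15 then had adjusted p = 0.00323, Oasl1 0.00323, Bst2 0.00855 and Adar 0.0133 against tolerized cells, and Ifit3 and Usp18 both 0.0567.

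**Figure D5:**
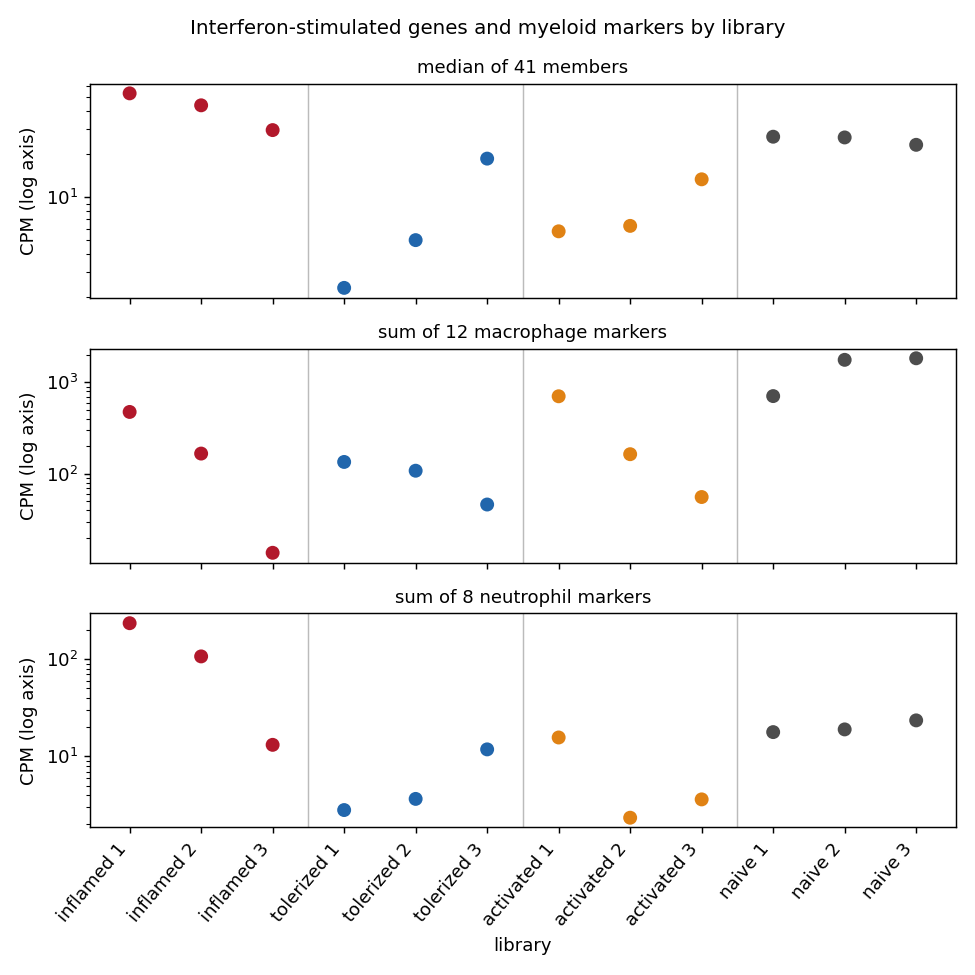
Median CPM of the 41 members (top), summed CPM of 12 macrophage markers (middle) and of 8 neutrophil markers (bottom) in each of the 12 libraries, on log axes. In inflamed libraries the member medians are 53.1, 43.8 and 29.4 CPM and the macrophage sums 475, 166 and 13.6 CPM, and in activated libraries the medians are 5.76, 6.29 and 13.3 CPM and the macrophage sums 706, 164 and 55.6 CPM.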

How the data were processed

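Whole-number read counts per gene for the 12 libraries were deposited by the authors as 1 table. The submitters' processing notes name TopHat2 and bedtools and the builds mm10 and GRCm38, and how reads shared by similar genes or strands were counted is not given in the sources used here. The 41 members and the lists of pathway and marker genes were chosen with earlier results of these data known, so they are not independent evidence. A gene of the pathway list is not reported here and is left out of its counts. Genes with at least 10 reads' worth of CPM (0.258 CPM at the median depth) in 3 libraries and 15 reads in all were kept, which left 12499. Counts were scaled by TMM (factors between 0.897 and 1.22) and tested as log2(CPM + 1) with limma 3.58.1 in R 4.3.3 (lmFit and eBayes with a trend), with 4 group means in 1 fit, two-sided, and Benjamini-Hochberg adjustment over all tested genes of each of 6 comparisons. A fold change on this scale understates that of low genes. The procedure was tested on simulated counts with the same dispersion for every gene and no library-wide shifts. That test does not cover the differences between libraries of a group described here.

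Every listed member was named. Values per library were given for most of the most abundant members of each functional group per kilobase and for those called in a comparison among the antigen-exposed groups. Some choices fell outside that rule: Ifi203, Ifitm3 and Epsti1 were given in full, and Herc6, Ddx60 and Cmpk2 in part. Dtx3l and Samd9l, which the rule covers, were not given in full. Libraries of a group correlated between 0.961 and 0.994, and no pair agreed within sampling noise. Low counts were even in 55.6% to 64.4% of cases, where chance gives about equal numbers, so many reads may have been counted in pairs and counting precision is lower than totals imply. Deviations of same-numbered libraries from their group means, over all tested genes, correlated at 0.636, 0.225 and 0.146 in inflamed and activated cells. In tolerized and activated cells the correlations were 0.602, 0.190 and 0.576. Differently numbered libraries were not compared, so a link through the number is not shown, and a shared day or mouse behind a number is not stated. Alternatives were other scalings, filters and pseudocounts (0.1 and 5), limma-voom, fits of the 2 groups compared, a replicate block, and leaving out each library. Figures used Python 3.11.15 with matplotlib 3.10.9.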

Additional observations from a re-analysis of the deposited data

How the results depend on the processing

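Limits come first from 3 libraries a group. Every alternative below kept the direction of each member called by the main choice. Leaving out each library in turn gave between 15 and 30 called members in inflamed against tolerized cells (23 with all), between 13 and 27 against activated cells (22), between 12 and 26 against naive cells (19), between 29 and 38 in activated against naive (35), between 27 and 38 in tolerized against naive (32) and 0 in tolerized against activated cells. All genes called ran between 156 and 539 (348), 107 and 329 (240), 8326 and 9188 (9050), 8013 and 8917 (8831), 8448 and 9299 (9161) and 0 and 65 (0) in the same order. The 65 arose without tolerized library 1, and 156 without tolerized library 2. Median member differences ran between 1.79 and 2.62, 1.82 and 2.45, 0.29 and 0.70, -1.99 and -1.54, -2.33 and -1.39, and -0.65 and 0.17.

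With only the 2 groups compared, which leaves 6 libraries to estimate the spread, 11 members and 148 genes passed in inflamed against tolerized cells and 99 genes against activated cells. With a replicate block in the fit of all 12 libraries, members called were 21, 20, 19, 34, 32 and 0. With a replicate block and only the 2 groups compared, 0 members and 0 genes passed in inflamed against tolerized cells, and 11 members and 67 genes against activated cells. Deviations of same-numbered inflamed and tolerized libraries correlated at 0.273, -0.069 and -0.167. Leaving out the macrophage-richest library of each group, chosen after seeing the data, gave 12 and 11 members, and 100 genes against activated cells. Scaling by library size shifted the median of all genes against naive by -0.22 in activated, -0.24 in tolerized and -0.27 in inflamed cells, and upper-quartile scaling by -0.16, -0.18 and -0.17. The share of calls that were higher was then 39.1%, 39.6% and 38.6%, or 41.1%, 41.8% and 42.5%, against 50%, 51% and 51% with TMM. Other causes of these shifts were not tested.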
